A study of Bos taurus with 18 samples.

Results

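The interferon-response genes described here are 34 genes of the rumen lining, chosen by name from a list of 35 genes that interferons are known to induce. Each of the 34 matched 1 row of the table of 27270 genes, and BST2 was not analysed here. All 34 had enough reads to be tested among 22202 genes, so none was lost to the filter on low counts. RNA was measured by sequencing in papillae taken from the rumen wall, where they project like fingers into the rumen, of 9 Holstein cows that were rumen-cannulated and not lactating. Every cow was sampled on a forage diet (100% forage) and again after a change to a high-grain diet (65% concentrate). Of these cows, 5 were controls and 4 received a supplement that the labels name only as PHY, without expanding it. The 18 libraries formed 4 groups, named by diet and arm: control cows gave forage_control and grain_control (n = 5 each), and PHY cows gave forage_PHY and grain_PHY (n = 4 each). The labels do not say whether PHY was already fed at the forage biopsy, and they tie no library to a cow. Replicate numbers below are therefore only names, and the p-values of the diet comparisons take no account of libraries that share a cow.

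Interferons are secreted when cells sense foreign nucleic acid, and they act on receptors whose kinases activate transcription factors such as STAT2. With IRF9 it forms part of a complex that binds the promoters of interferon-stimulated genes. The products of those genes bind viral RNA, block viral entry or assembly, or tag proteins with the ubiquitin-like ISG15. They also include the sensors and transcription factors of the pathway itself, so that the response feeds its own growth. In an epithelium such as the rumen lining, the epithelial cells, resident immune cells and stromal cells can all express them.

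Total counts ran from 3953060 reads in grain_PHY 1 to 34471682 in forage_PHY 2, and the members together held 2310 to 13778 reads of a library. Reads on 144 olfactory receptor genes, normally silent outside the nose, served as a measure of background. They stood at 16.3 to 65.0 CPM (reads scaled to library size) in forage libraries and at 32.9 to 345.3 CPM in grain libraries. The highest 3 were grain_PHY 1 at 345.3, grain_control 1 at 168.6 and grain_control 4 at 125.4 CPM. The epithelium markers summed to between 4743 and 25320 CPM over the 18 libraries, with no other tissue in the series to set them beside. In bulk tissue, fewer cells of a type and less RNA per cell cannot be told apart. The levels of the members below are CPM on edgeR's effective library sizes, not corrected for gene length, so they are compared between libraries and not between genes.

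**Figure D1:**
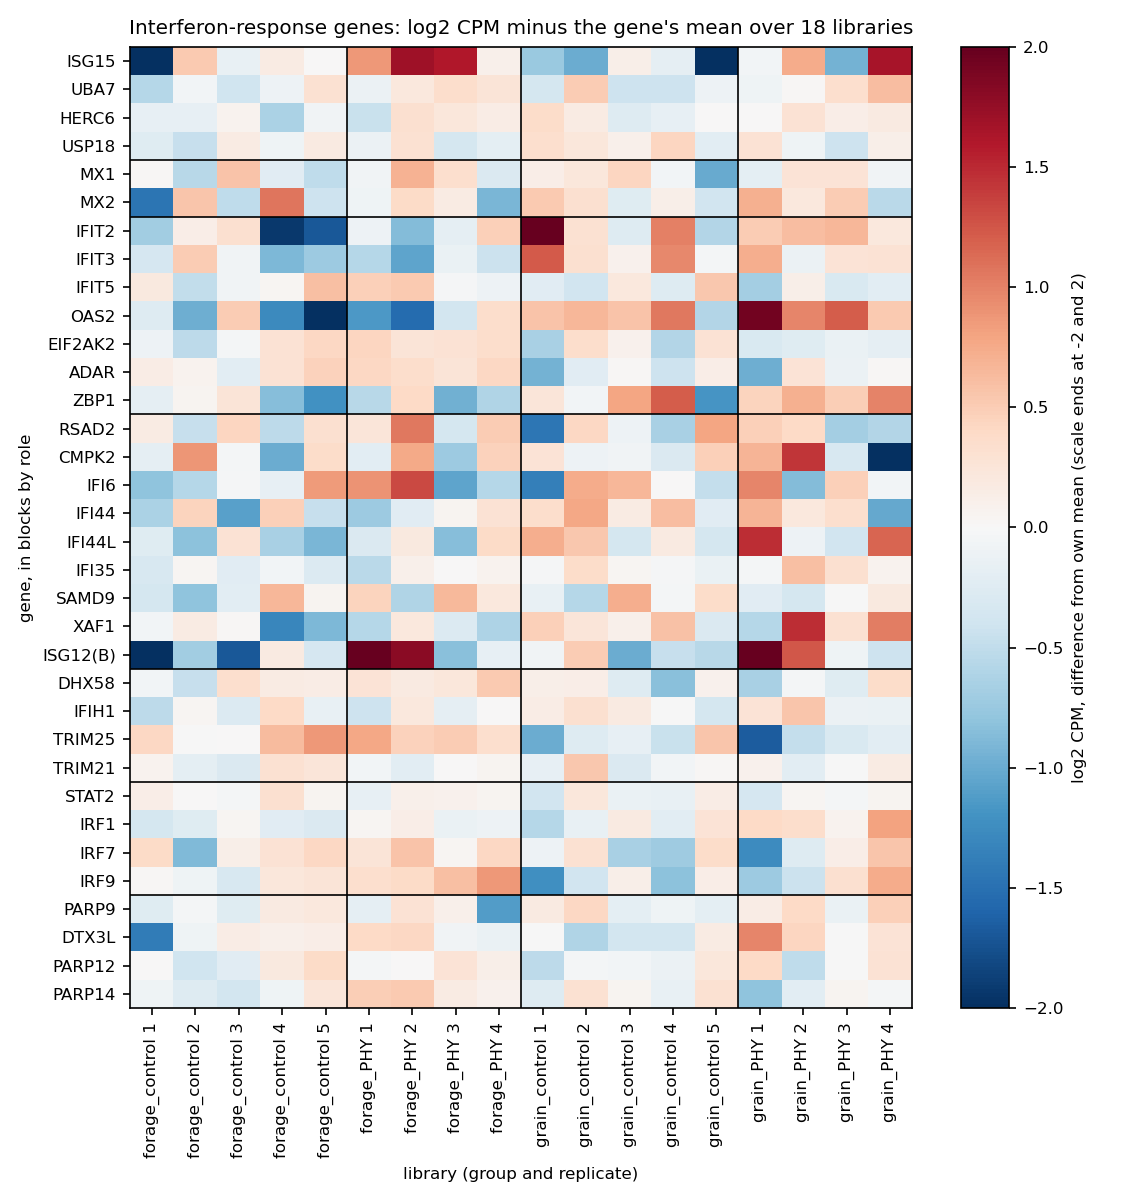
Level of each of the 34 interferon-response genes (vertical axis, in blocks by role) in each of the 18 libraries (horizontal axis), as log2 CPM minus the gene's own mean over the libraries, with the colour scale ending at −2 and 2. No library was high or low in the whole list: forage_PHY 2 lay above the gene's mean in 28 of 34 genes, and forage_control 1 and grain_control 4 in 10 each.

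On edgeR's effective library sizes, the list did not move as a whole with diet. Over both arms, 2 of 34 members were higher on grain and 2 were lower (edgeR quasi-likelihood test, Benjamini-Hochberg adjusted p under 0.05, called from here on). That is 11.8% of the members, where 31.9% of all genes were called in this comparison, 18.1% higher and 13.8% lower. OAS2 and IFIT3 rose, and TRIM25 and ADAR fell. Of the other 30, 17 had a positive and 13 a negative fold change. The median log2 fold change of the members was 0.06, against 0.20 over all genes tested. At an unadjusted p under 0.05 the share was 23.5% of members (8 of 34) and 50.3% of all genes. As log2(CPM + 1) from total reads, the mean over the members was 2.61 in forage_control and 3.10 in grain_control, without overlap. In PHY libraries it was 2.87 on forage and 3.27 on grain, with overlap. From median-ratio size factors, mean log2 CPM was 2.41 and 2.62 in control and 2.64 and 2.82 in PHY libraries. The same means over all genes are not given here.

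The 4 calls, like those of the whole table, were lost under several settings. With olfactory receptor CPM as a covariate 0 members and 0 of all 22202 genes were called, and at an unadjusted p under 0.05 there were 1 of 34 members (2.94%) and 4.65% of all genes. Without the 3 libraries highest in that measure 0 members and 0 of 21399 genes were called, with 5 members (14.7%) and 19.3% of all genes at an unadjusted p under 0.05. Leaving out grain_PHY 1 alone gave 0 member calls, with 8 at an unadjusted p under 0.05, and 1 gene of the whole table was then called. The log2 fold change of OAS2, 1.52 in the main fit, was 1.29 without the 3 libraries and 1.38 without grain_PHY 1. That of IFIT3, 0.86 in the main fit, was 0.58 and 0.80. With the covariate the values shrank more, to 0.70 ± 0.45 (SE) for OAS2 and 0.17 ± 0.32 for IFIT3. The covariate itself ran higher on grain, so that fit cannot tell diet and background fully apart. The count was 2 without forage_control 1, 4 or 5, without any 1 of the 4 forage_PHY libraries, and without grain_control 1, grain_control 4 or grain_PHY 3, where 9.27% to 28.1% of all genes were called. DESeq2 called 10 members (29.4%), 8 higher and 2 lower, and 41.9% of all genes. Limma voom with quality weights called 9 members (26.5%) and 45.6% of all genes, and edgeR without a low-count filter 2 members and 25.7% of all genes. With DESeq2's size factors in edgeR the split was 2 higher and 1 lower, in place of 2 and 2.

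Among the effectors that bind RNA, OAS2, which makes the short oligoadenylates that activate RNase L, stood at 1.43, 0.837, 2.53, 0.654 and 0.291 CPM in forage_control. It stood at 0.729, 0.530, 1.33 and 2.27 CPM in forage_PHY. On grain its values were 2.66, 2.84, 2.64, 3.74 and 1.12 CPM in control libraries and 6.93, 3.53, 4.21 and 2.56 CPM in PHY libraries. Every grain_PHY library lay above every forage_PHY library, while the control groups overlapped through grain_control 5. OAS2 was 2.87-fold higher on grain over both arms (log2 fold change 1.52 ± 0.42 SE, edgeR adjusted p = 0.0217). It rests on 9 to 70 reads a library.

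IFIT3, of the tetratricopeptide family that binds viral RNA, gave 1.81, 3.35, 2.2, 1.19 and 1.36 CPM in forage_control and 1.52, 1.06, 2.10 and 1.68 in forage_PHY. On grain it gave 5.56, 2.92, 2.46, 4.62 and 2.24 CPM in control libraries and 3.90, 2.13, 2.83 and 2.85 in PHY libraries. The highest 2 of all were grain_control 1 and grain_control 4, 2 of the 3 libraries highest in background. IFIT3 rose by 0.86 ± 0.32 on the log2 scale (edgeR adjusted p = 0.0424), from 23 to 71 reads a library. Its neighbour IFIT2 missed the threshold at 1.01 ± 0.41 (adjusted p = 0.0578). IFIT5, of the same family, had a log2 fold change of −0.29 ± 0.17 (adjusted p = 0.170).

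ADAR, which edits adenosine to inosine in double-stranded RNA, was at 46.6, 44.2, 36.4, 51.3 and 58.0 CPM in forage_control and 55.7, 53.4, 50.0 and 56.2 in forage_PHY. On grain it was at 21.8, 35.9, 42.8, 31.4 and 45.8 CPM in control libraries and 21.2, 50.7, 38.8 and 42.8 in PHY libraries. The lowest 3 were grain_PHY 1, grain_control 1 and grain_control 4, which are the 3 libraries highest in background, and the diets overlapped in both arms. ADAR fell by 0.45 on the log2 scale (SE 0.17, edgeR adjusted p = 0.0486). With the olfactory receptor covariate its log2 fold change was 0.04 ± 0.14, smaller than its SE, and without the 3 libraries it was −0.20 (edgeR adjusted p = 0.340).

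The kinase EIF2AK2 (PKR), which halts translation on double-stranded RNA, and ZBP1, a sensor of Z-form nucleic acid, were not called. The log2 fold change was −0.32 ± 0.16 for EIF2AK2 (edgeR adjusted p = 0.108) and, for ZBP1, 0.89 ± 0.38 (adjusted p = 0.0687). In all, the 7 RNA-binding effectors gave 2 rises and 1 fall, with log2 fold changes from −0.45 to 1.52.

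Among the sensors and their ligases, TRIM25, the ubiquitin ligase that works with the RNA sensor RIG-I, fell. It was at 69.0, 51.2, 51.7, 80.1 and 94.2 CPM in forage_control and at 88.1, 71.2, 73.5 and 64.9 in forage_PHY. On grain it was at 25.9, 43.0, 46.0, 38.1 and 76.3 CPM in control libraries and at 16.2, 36.9, 41.8 and 44.5 in PHY libraries. All grain_PHY libraries lay below all forage_PHY libraries, while grain_control 5 reached into the forage_control range. TRIM25 fell by 0.84 on the log2 scale (SE 0.21, edgeR adjusted p = 0.0202). With the olfactory receptor covariate the log2 fold change was −0.16 (adjusted p = 0.9994), and without grain_PHY 1 it was −0.68 (adjusted p = 0.0629). The RNA sensors DHX58 (LGP2) and IFIH1 (MDA5) had log2 fold changes of −0.28 ± 0.16 and 0.20 ± 0.17. The antibody receptor and ligase TRIM21 had one of 0.03 ± 0.14, and none of the 3 was called.

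The transcription factors were not called. STAT2, with mean levels of 22.6 ± 2.25 CPM (SD, n = 5) in forage_control, 21.5 ± 1.79 (n = 4) in forage_PHY, 20.5 ± 3.47 (n = 5) in grain_control and 20.3 ± 2.42 (n = 4) in grain_PHY, differed by −0.11 ± 0.13 between diets (log2, edgeR adjusted p = 0.466). Its DNA-binding partner IRF9 had one of −0.42 ± 0.21 (adjusted p = 0.110), and IRF7, the amplifier of type I interferon production, one of −0.31 ± 0.22. IRF1, which interferon gamma induces, had one of 0.30 ± 0.17.

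The ISG15 cycle was not called either. ISG15 itself was at 0.0754, 1.02, 0.600, 0.777 and 0.678 CPM in forage_control and at 0.363, 0.288, 0.745, 0.586 and 0.0467 in grain_control. It was at 1.33, 2.43, 2.27 and 0.731 CPM in forage_PHY and at 0.650, 1.21, 0.301 and 2.36 in grain_PHY. The single-library values are imprecise, since ISG15 had 1 to 78 reads a library, with 1 read each in forage_control 1 and grain_control 5. Its diet difference was −0.62 ± 0.55 on the log2 scale (edgeR adjusted p = 0.348). The activating enzyme UBA7 (E1), the ligase HERC6 and the protease USP18 lay between 0.04 and 0.16.

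Among the remaining effectors, the dynamin-like GTPases MX1 and MX2 had log2 fold changes of −0.02 ± 0.21 and 0.16 ± 0.27. The 9 others, which are RSAD2 (viperin), its neighbour CMPK2, IFI6, IFI35, IFI44, IFI44L, SAMD9, XAF1 and ISG12(B), lay between −0.25 and 0.83, and 0 of 9 were called. The closest to the threshold were XAF1, a partner of the apoptosis inhibitor XIAP, at 0.83 ± 0.35 (edgeR adjusted p = 0.0663) and IFI44L at 0.75 ± 0.36 (adjusted p = 0.0961). The ADP-ribosylation group of PARP9, its partner DTX3L, PARP12 and PARP14 lay between −0.19 and 0.22, with 0 of 4 called.

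**Figure D2:**
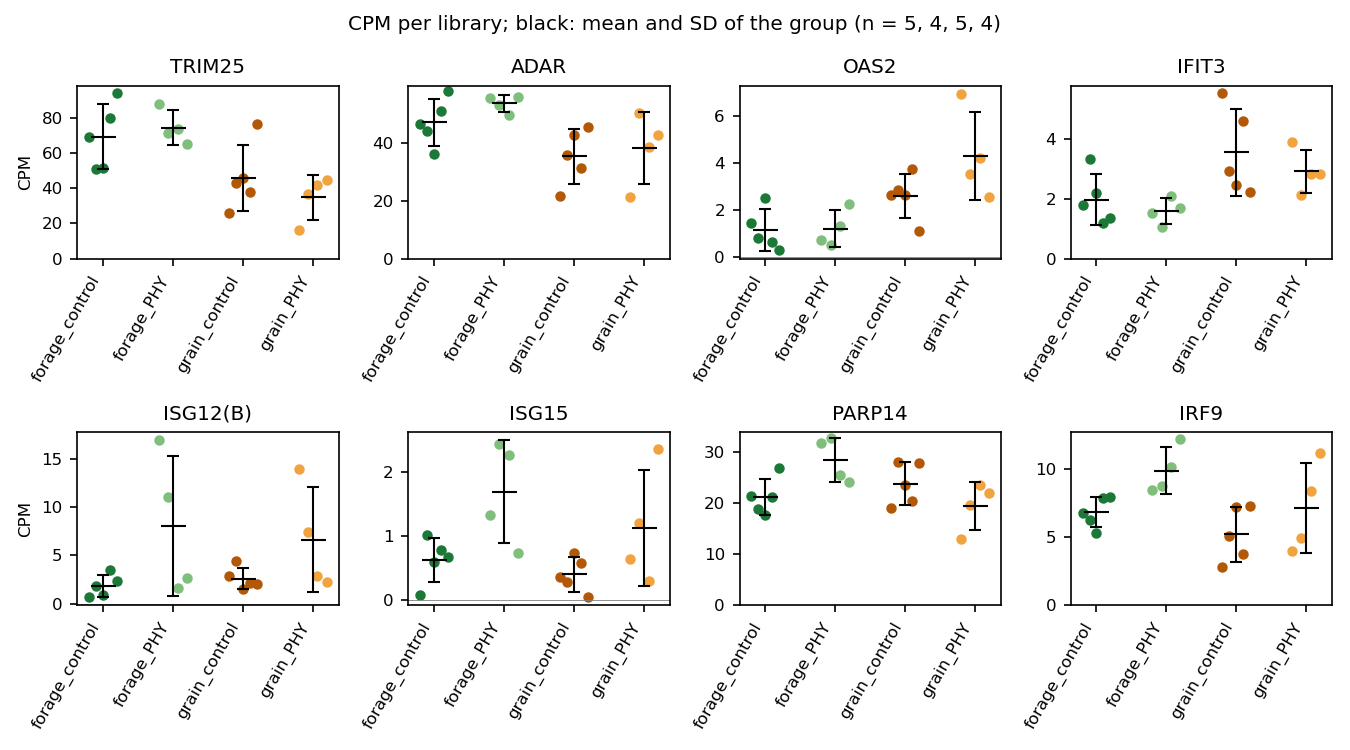
CPM of 8 interferon-response genes in each library (points), with the mean and SD of the group in black, for the 2 control groups (n = 5 each) and the 2 PHY groups (n = 4 each). TRIM25 and ADAR sit lower and OAS2 and IFIT3 higher on grain, with overlap between the 9 forage and 9 grain libraries in every panel, and ISG12(B) is above 7 CPM in 2 forage_PHY and 2 grain_PHY libraries.

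The diet difference of a gene went with its level. Of all genes with a mean log2 CPM under 2, 30.4% were called higher on grain and 0.184% lower, and the median log2 fold change was 1.265. Of those over 5, 1.02% were called higher and 49.2% lower, and the median was −0.50. The 2 members that rose, OAS2 and IFIT3, are among the 11 members under 2, and the 2 members over 5 are TRIM25 and ADAR, which fell. In the 3 ranges between, 0 of 21 members were called, where 27.3% of all genes at these levels were. The 11 members under 2 had a median log2 fold change of 0.75, below that of all genes at their level. What part the level, the depth and the background each had in these 4 calls was not tested beyond the covariate above.

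**Figure D3:**
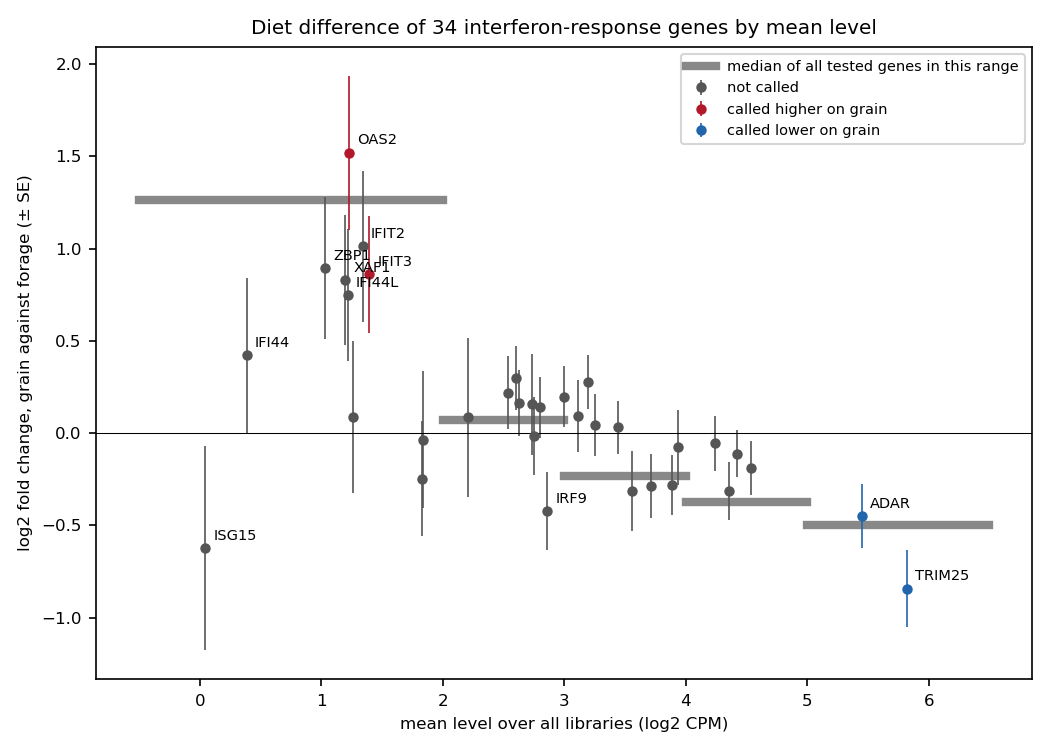
Log2 fold change of grain against forage over both arms, with its SE (vertical axis), against the mean log2 CPM of the gene (horizontal axis) for the 34 members, with the median of all tested genes in each of 5 ranges of level drawn as a grey bar (the outer bars stand for all genes under 2 and over 5). The bars step from above 1 for genes under 2 to −0.50 for genes over 5, and the 4 called members lie at both ends.

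Within an arm, 0 of 34 members were called. In control cows 0.0% of all genes were called, and 3 members had an unadjusted p under 0.05 (8.82%, against 11.3% of all genes). In PHY cows 0.0% of all genes were called, and 4 members had an unadjusted p under 0.05 (11.8%, against 39.7% of all genes). The smallest adjusted p of a member there was 0.0696, for TRIM25 at −1.09 ± 0.31, and OAS2 followed at 1.85 ± 0.62 (edgeR adjusted p = 0.0707). Both were called with DESeq2 (2 members, 5.88%, against 23.8% of all genes) and with edgeR on the 2 PHY groups alone (2 members, against 24.0% of all genes). Limma voom with quality weights added EIF2AK2 (3 members, 8.82%, against 35.6% of all genes). In PHY libraries 6 of 34 members had diet groups that did not overlap, where 30% of all genes did: IFIT3, OAS2 and ZBP1 lay higher on grain and EIF2AK2, PARP14 and TRIM25 lower. In control libraries 0 of 34 did, where 1.35% of all genes did. With the arms joined, 0 of 34 kept 9 forage and 9 grain libraries apart, where 0.207% of all genes did.

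No member's diet response was called different between arms, in a comparison where 0.0% of all genes were called. The smallest unadjusted p was that of PARP14, a mono-ADP-ribosyltransferase (difference of log2 fold changes, PHY minus control, −0.71 ± 0.29, edgeR adjusted p = 0.954). PARP14 was at 21.4, 18.8, 17.6, 21.3 and 26.9 CPM in forage_control and at 31.7, 32.6, 25.5 and 24.1 in forage_PHY. On grain it was at 19.0, 28.1, 23.4, 20.5 and 27.9 CPM in control libraries and at 12.9, 19.6, 23.6 and 21.9 in PHY libraries. It was thus highest in forage_PHY 1 and 2 and lowest in grain_PHY 1.

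Between PHY and control cows, 0 of 34 members were called on forage and 0 on grain, in comparisons where 0.0% of all genes were called. At an unadjusted p under 0.05 there were 2 members on each diet (5.88%, against 1.60% of all genes on forage and 2.57% on grain). The largest difference on forage, and the next to largest after ISG15 on grain, was that of ISG12(B), a cattle gene of the family of IFI27, small proteins of mitochondrial and nuclear membranes. It stood at 0.679, 1.85, 0.867, 3.48 and 2.39 CPM in forage_control and at 16.9, 11.0, 1.66 and 2.71 in forage_PHY. On grain it stood at 2.90, 4.40, 1.49, 2.2 and 2.06 CPM in control libraries and at 14.0, 7.42, 2.89 and 2.26 in PHY libraries. On each diet 2 PHY libraries lay above all control libraries and 2 lay within their range.

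The PHY to control difference of ISG12(B) was 4.29-fold on forage (log2 2.10 ± 0.61, edgeR adjusted p = 0.9999) and 2.52-fold on grain (log2 1.33 ± 0.61, adjusted p = 0.9992). Without forage_PHY 1 the log2 difference on forage was 1.46, and without grain_PHY 1 that on grain was 0.66. Both diets' libraries come from the same cows, so the pair of differences is not independent. IFI27, which is of the same family and could share reads with it, had log2 differences of 0.98 ± 0.54 on forage and 0.85 ± 0.54 on grain (edgeR adjusted p = 0.9999 and 0.9992).

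ISG15 had log2 differences of 1.41 ± 0.77 on forage (edgeR adjusted p = 0.9999) and 1.46 ± 0.80 on grain (adjusted p = 0.9992). Without grain_PHY 4 the grain value was 0.81, and limma voom with quality weights gave 2.32 on forage and 0.32 on grain. IRF9 was the 1 member whose forage groups did not overlap, where 0.554% of all genes did. It was at 6.79, 6.28, 5.33, 7.85 and 7.98 CPM in forage_control and at 8.43, 8.73, 10.1 and 12.2 in forage_PHY, a log2 difference of 0.52 ± 0.30 (edgeR adjusted p = 0.9999). On grain its arms overlapped, from 2.78 to 7.29 CPM in control and from 4.01 to 11.2 in PHY libraries, and 0 of 34 members had arms apart, where 0.716% of all genes did. PARP14 on forage (0.43 ± 0.21) and DTX3L on grain (0.67 ± 0.28) were the other members at an unadjusted p under 0.05.

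Most members had a positive PHY difference, without a call. On forage 26 of 34 did, with a median of 0.19 against −0.02 over all genes, and on grain 22 of 34 did, with a median of 0.12 against 0.01. It was positive on both diets for 18 members (52.9%), negative on both for 4 (11.8%) and opposite for 12 (35.3%). Over all genes these shares were 19.5%, 21.5% and 58.9%, and both diets' values come from the same cows. The mean log2 CPM over the members was 2.48 ± 0.10 (SD, n = 5) in control and 2.74 ± 0.13 (n = 4) in PHY libraries on forage, and the libraries of these groups did not overlap (2.30 to 2.55 and 2.63 to 2.92). The mean over the members was 2.63 ± 0.10 (n = 5) in grain_control and 2.79 ± 0.07 (n = 4) in grain_PHY, which overlapped. ISG12(B) and ISG15, which differed by 2.10 and 1.41 on forage without a call, are part of this mean. The same mean over like sets of other genes is not given here. The order of the arms was the same with median-ratio size factors and with total reads as the scale, but the forage groups then overlapped. In forage_PHY 2, the library with the most reads, 6 members had their highest value of the 18 libraries. In the libraries with the fewest reads, grain_PHY 1 and grain_control 1, 5 and 7 members had their lowest and 4 and 3 their highest. In forage_control 1, of middling depth, 5 had their lowest and 0 their highest. The same counts over all genes are not given here.

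**Figure D4:**
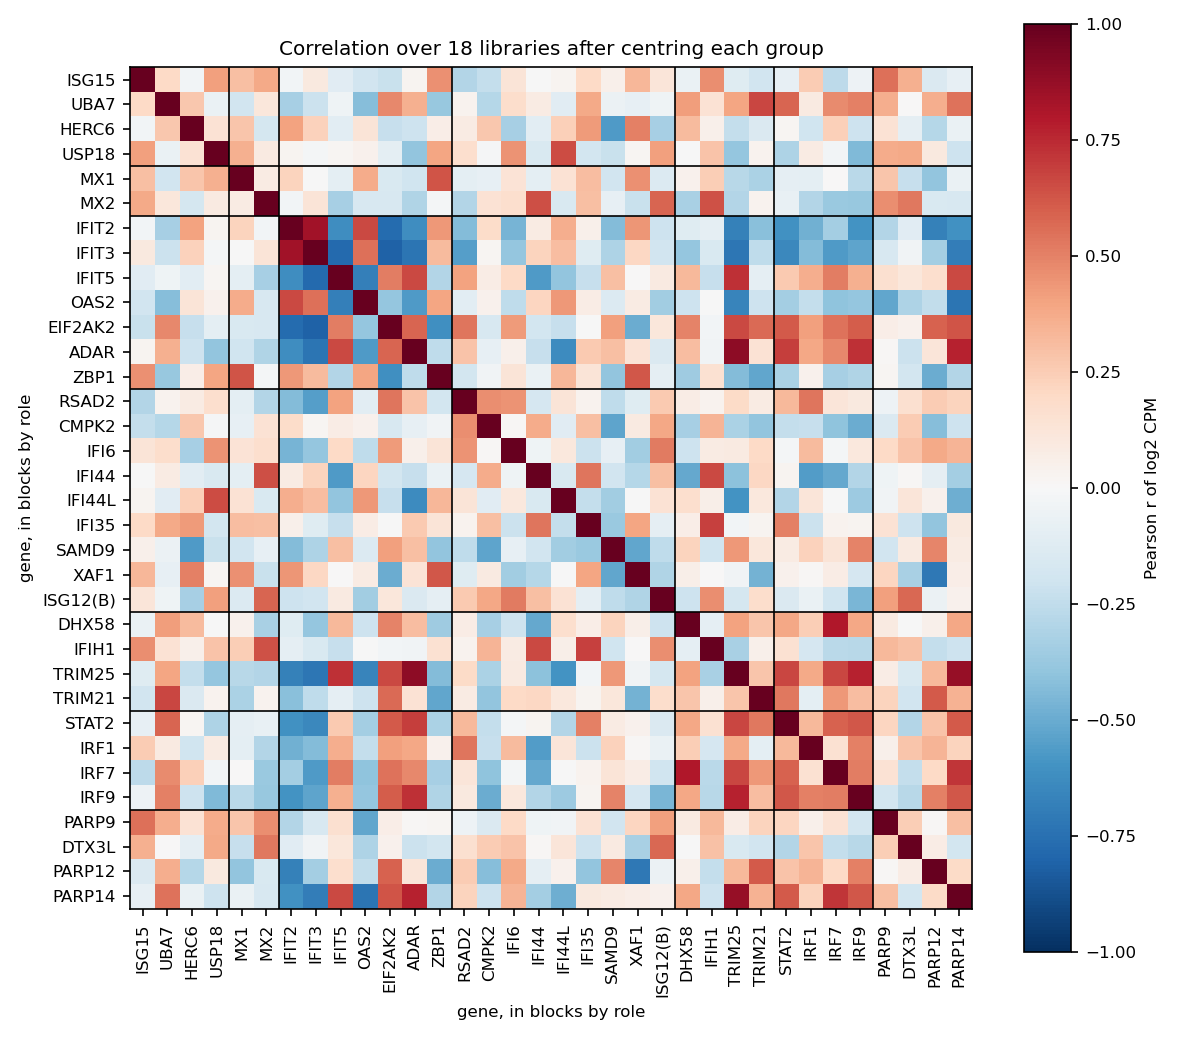
Pearson correlation of log2 CPM between each pair of the 34 members over the 18 libraries, after taking each group's mean out, with the members in blocks by role on both axes and colour for r. The map has no single block of positive values: the median of the 561 pairs was 0.02, and IFIT2 with IFIT3 (r = 0.84) and TRIM25 with ADAR (r = 0.89) stand out beside negative pairs such as IFIT3 with IFIT5 (r = −0.78).

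How far the members varied together from library to library depended on the measure. Over the 9 forage libraries the median Pearson r of the 561 member pairs was 0.11, against 0.003 over all gene pairs, and 17.3% of member pairs exceeded 0.5, against 19.3%. Over the 9 grain libraries the median was 0.03, and 13.7% of member pairs exceeded 0.5, against 22.3% of all pairs. With all 18 libraries centred within group it was 0.02, with 9.98% of member pairs above 0.5, against 18.3%. With the relation to log2 total reads taken out, the median on forage was 0.08, against 0.0025 over all gene pairs, and 17.6% of member pairs exceeded 0.5, against 14.8%. On grain these shares were 12.7% for members and for all pairs, and over the centred libraries 4.63% and 7.47%. The first principal component of the members held 28.6% of their variance and the next 13.4%. These correlations are descriptions, since libraries share cows and depth. They moved with the scale: on log2(CPM + 1) from total reads the medians were 0.38 on forage, 0.49 on grain and 0.44 over all, against 0.16, 0.477 and 0.40 over all genes.

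Among the roles, over the centred libraries, the transcription factors had the highest median r, 0.51 over their 6 pairs (0.16 to 0.62). Their value was 0.56 on grain but 0.17 on forage, where the ISG15 cycle (0.26) and the ADP-ribosylation group (0.23) were above it. STAT2 with IRF9, partners in one complex, had r = 0.62, and 0.26 once the relation of each to log2 total reads was taken out. Over the centred libraries the ISG15 cycle followed at 0.17, the sensors at 0.16 and the ADP-ribosylation group at 0.14. The RNA-binding effectors had a median of −0.29, from −0.80 for IFIT3 with EIF2AK2 to 0.84 for IFIT2 with IFIT3.

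Single pairs differed in how far depth went with them. TRIM25 with ADAR had r = 0.89, and 0.66 with the relation to depth taken out, and PARP14 with TRIM25 had 0.87 and 0.44. DHX58 with IRF7 had 0.80 and 0.78, and IFIT2 with IFIT3 had 0.84 and 0.67. These pairs were picked as the highest of 561. Of the members, 12 lie beside or within a few genes of another member in the RefSeq gene order of the assembly ARS-UCD2.0, and neighbours did not always go together. RSAD2 and CMPK2 had r = 0.47, PARP9 and DTX3L 0.24, MX1 and MX2 0.08, and IFI44 and IFI44L −0.15. IFIT3 and IFIT5, with 1 coding gene between them, had r = −0.78, but 0.18 on the scale of total reads. IFI6 and ISG12(B), of related small-protein families, had r = 0.52 over all, 0.73 on forage and 0.17 on grain.

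ISG15, often used as the index of an interferon response, was set against each of the other 33 members. On forage 0 of 33 correlations passed (exact permutation test, two-sided, Benjamini-Hochberg over the 33 members), with 3 at an unadjusted p under 0.05, a median r of 0.18 (26 of 33 positive) and a smallest adjusted p of 0.394. On log2(CPM + 1) from total reads 0 of 33 passed as well, but the median r was 0.53, 32 of 33 were positive and 7 had an unadjusted p under 0.05. All gene pairs on forage had a median r of 0.16 on that scale, and how many other genes went with ISG15 was not counted. On grain, back on log2 CPM, 0 of 33 passed, with 1 at an unadjusted p under 0.05. That 1 was ZBP1 (r = 0.82, exact permutation p = 0.00755, adjusted p = 0.249, n = 9), and r was 0.59 without the 2 libraries farthest from the median of ISG15. On forage the highest was DTX3L at r = 0.81, which was −0.06 without the 2 farthest libraries and so rests on them. In forage_control 1 both genes were at their lowest of the group, with ISG15 at 1 read.

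Several members went with sequencing depth, but how many of all genes pass the same test was not counted. Over all 22202 genes, r with depth on grain ran from −0.99 to 0.99. Among the 9 grain libraries, 3 of 34 passed against log2 total reads (exact permutation test, two-sided, Benjamini-Hochberg over the 34 members). PARP14 had Pearson r = 0.94 (exact permutation p = 1.65e-05, adjusted p = 0.000562) and Spearman rho = 0.97 (exact p = 0.000165, adjusted p = 0.00562). Its r was 0.96 without the 2 libraries farthest from the median. TRIM25 had r = 0.89 (exact permutation p = 0.000926, adjusted p = 0.0157) and rho = 0.85 (exact p = 0.00607, adjusted p = 0.0688), and r was 0.59 without the 2 farthest. STAT2 had r = 0.85 (exact permutation p = 0.00418, adjusted p = 0.0474) and rho = 0.83 (exact p = 0.00827, adjusted p = 0.0703), and r was 0.56 without the 2 farthest. The size of r, and for PARP14 and STAT2 its sign, depends on the scale. On log2(CPM + 1) from total reads r was −0.22 for PARP14, −0.62 for STAT2 and 0.48 for TRIM25. On that scale 9 members passed, and the median r of the 34 was −0.62.

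On forage 0 of 34 passed against depth, with 11 at an unadjusted p under 0.05. IFIT3 was lower in deeper forage libraries (r = −0.85, exact permutation p = 0.00209, adjusted p = 0.0711, n = 9). IFI6 was higher in them (r = 0.84, exact permutation p = 0.00736, adjusted p = 0.0834, n = 9). The median r of the members with depth was 0.33 on forage, against −0.08 over all genes. On grain it was 0.08, against −0.19.

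**Figure D5:**
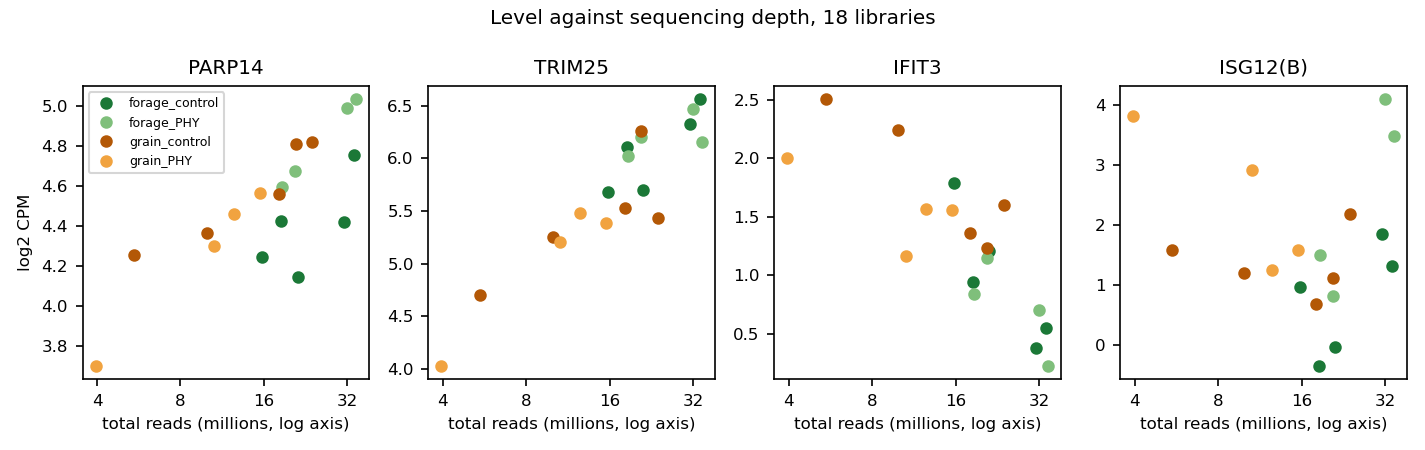
Log2 CPM of PARP14, TRIM25, IFIT3 and ISG12(B) (vertical axis) against total reads (horizontal log axis) in the 18 libraries, coloured by group. Among the 9 grain libraries PARP14 (r = 0.94) and TRIM25 (r = 0.89) are lower where fewer reads were sequenced, and ISG12(B) is high in libraries of both high and low depth.

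The members also differed in how far they varied within a group. ISG12(B), with a within-group SD of 1.08 on the log2 scale, ISG15 with 0.97, CMPK2 with 0.92 and IFI6 with 0.86 varied most. STAT2 (0.18), IFI35 (0.23), TRIM21 (0.24) and IRF1 (0.25) varied least. Set beside genes of like level, ISG12(B) lay at the 94.3 percentile of SD and IRF7 at the 86.1 percentile, and STAT2 at the 1.51 percentile. ISG15, CMPK2 and IFI6 lay at the 39.6, 33.8 and 28.3 percentile, below the middle for their level. The 11 members with a mean log2 CPM under 2 had a median SD of 0.66, against 1.045 over all genes there. Of those between 4 and 5 it was 0.29, against 0.36.

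The rest of the pathway was read from lists of other interferon genes. The calls of these lists over both arms stand beside 18.1% of all genes called higher and 13.8% lower, and beside the shares by level above. With the olfactory receptor covariate, or without the 3 libraries highest in that measure, 0 genes of any list were called. Of the receptors and their kinases, 4 of 11 fell on grain and 0 rose over both arms. IFNGR2, a chain of the interferon gamma receptor, fell by 0.75 (SE 0.18, edgeR adjusted p = 0.0202), STAT3 by 0.54, JAK1 by 0.55 and IL10RB by 0.51. The type I receptor chains IFNAR1 (−0.38 ± 0.16, adjusted p = 0.0608) and IFNAR2 (−0.08 ± 0.16, adjusted p = 0.694) were not called. Of 16 sensors and adaptors, 1 rose and 4 fell: TLR7 rose by 1.39, and MYD88 fell by 0.53, IRF3 by 0.49 (edgeR adjusted p = 0.0317), IRF5 by 0.42 and IKBKE by 0.35. Of 12 restraints of the pathway, 0 rose and 2 fell, NLRX1 by 0.50 and PIAS4 by 0.56.

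The ligands were close to the limit of detection. The list matched 14 rows, of which 6, all named IFNB3, had 0 reads in all 18 libraries. Of the 5 that could be tested, 3 rose on grain: IFNK by 1.56, IFNT2 by 2.30 and IFNT3 by 2.71 on the log2 scale. All 3 have a mean log2 CPM under 2, where 30.4% of all genes were called higher with a median of 1.265. They rest on 390, 96 and 66 reads over all 18 libraries, and IFNT2 and IFNT3 belong to a family of near-identical copies between which reads could be split. IFNG and IFNE had 334 and 244 reads in all and were not called.

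Of 54 other interferon-induced genes, 5 rose and 8 fell, with a median log2 fold change of −0.05, where 31.9% of all genes were called in either direction. IRF2 fell by 0.56, N4BP1 by 0.65, TAP2 by 0.46 and LGALS3BP by 0.57. The 5 that rose were GBP2, HSH2D, OAS1Z, OASL and RTP4, named after their values were seen. Those 5 had mean log2 CPM under 2, as the members OAS2 and IFIT3 did, and the 4 named falls were above 4. In the other 5 comparisons 0 genes of these lists were called.

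Markers of other cells were read beside these differences, where 18.1% of all genes, and 30.4% of those under a mean log2 CPM of 2, were called higher. Of 11 myeloid markers 5 rose on grain, of 12 T and NK cell markers 4, of 6 B and plasma cell markers 2, and of 4 tested red blood cell markers 3. Of 5 general leukocyte markers, 4 of plasmacytoid dendritic cells, 6 of fibroblasts and 5 of endothelium, 0 were called. Of 12 epithelium markers 2 rose and 4 fell. With the olfactory receptor covariate, or without the 3 libraries highest in it, 0 of these markers were called. The T and NK markers summed to 22.1 to 33.7 CPM in forage and 26.5 to 57.7 CPM in grain libraries, and the myeloid markers to 106.2 to 305.7 and 140.8 to 332.0 CPM. The myeloid sum rests largely on S100A8, with a mean of 174.5 CPM, against 14.0 for CSF1R and 9.54 for CD163. No marker of these lists was at 0 in all libraries. Of these marker lists, on forage the member mean went most with the 4 genes listed as plasmacytoid markers (r = 0.71, n = 9). The general leukocyte markers (0.50) and fibroblast markers (0.42) came next. On grain these values were 0.28, 0.04 and 0.29. In forage libraries the plasmacytoid markers summed to 66.7 to 92.0 CPM and the general leukocyte markers to 44.6 to 69.3 CPM. Singly, TCF4 of the plasmacytoid list had r = 0.41 with the member mean on forage, and RUNX2 had 0.02. Values for the rest of that list are not given here. Which cells these reads came from was not tested, nor was the part of any marker list in the members' levels.

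Outside the list, the 10 genes whose centred log2 CPM went most with the member mean, of 9870 genes ranked over 18 libraries, were C16H1orf115 (r = 0.79), PLEKHA2 (0.72), FZD1 (0.71), TMEM102 (0.70), FAM126A (0.70), LMF2 (0.68), B3GALT4 (0.67), CYBA (0.66), VASH1 (0.66) and VWA5A (0.66). None of them belongs to the interferon lists. Of 29 other interferon-induced genes ranked, 3 were in the top 5%: EPSTI1 at rank 49 (r = 0.55), CMTR1 at rank 61 (0.53) and SP110 at rank 231 (0.43). The median of the 29 was 0.07, against 0.03 over all genes ranked.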

How the data were processed

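From each sample 10 ng of column-purified total RNA entered a stranded total RNA library kit, per the labels' protocols. The authors deposited whole-number read counts per Ensembl gene, and those counts were used here. Reads were demultiplexed with bcl2fastq 2.20, on bosTau9, and DESeq2 is named without a version, per the submitters' processing notes. Not given in the sources used here are the aligner, the counter, the annotation and the use of strand, so overlapping, antisense and near-identical genes may share reads.

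Differences were tested on the counts with edgeR 4.0.16 (R 4.3.3): filterByExpr by group, TMM, robust quasi-likelihood F test, 1 mean per group, all 18 libraries, 6 contrasts, and Benjamini-Hochberg adjustment over the 22202 genes tested. P-values set each difference against the spread between these libraries, taken as independent although 9 cows gave all 18. Correlations used log2 CPM with a prior count of 2. Alternatives used DESeq2 1.42.0, limma 3.58.1 and other filters, scales and library sets. The fitting script was tested on simulated data. Every member is named, with up to 4 called genes of each other pathway list, IFNAR1, IFNAR2, IRF3, and the 10 genes most like the member mean. A result under this rule is not reported here. The members and lists were chosen with earlier results of these data known.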

Additional observations from a re-analysis of the deposited data

Results flagged for a closer look

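In 4 of 136 tests of a gene within a group, 1 library lay far from the rest of its group by Dixon's test on log2 CPM, where chance gives about 1 in 20. ISG15 was low in forage_control 1, at 0.0754 CPM, the value of 1 read. DTX3L was low in the same library, at 3.02 CPM, where the other 4 of its group lay between 7.65 and 9.07 CPM. IRF7 was low in forage_control 2, at 5.92 CPM. IFI35 was low in forage_PHY 1, at 6.11 CPM.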

How the results depend on the processing

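The 4 member calls of the diet comparison over both arms (31.9% of all genes) became 2 without a low-count filter (25.7%), 10 with DESeq2 (41.9%), 9 with limma voom (6 higher, 3 lower; 45.6%), and 0 with the olfactory receptor covariate or without the 3 libraries highest in that measure (0.0% of all genes in both). They ranged from 0 to 6 with 1 library left out. The log2 fold change of ADAR was 0.035 with the covariate, with an SE of 0.14. In PHY cows the 0 calls became 2 with DESeq2 or the groups compared alone and 3 with limma voom, and ranged from 0 to 2 with 1 library left out. The other 4 comparisons gave 0 member calls under each alternative run. The median member correlation was 0.379 on forage, 0.491 on grain and 0.439 over centred libraries on log2(CPM + 1) from total reads. With members of at least 5 CPM alone it was 0.207, 0.104 and 0.127. Over centred libraries it was −0.00128 with depth taken out. With 1 library left out it ranged from 0.050 to 0.144 on forage, from 0.018 to 0.049 on grain and from −0.000228 to 0.045 over centred libraries. Members passing against depth on grain were 9 on the total-read scale. No paired analysis was possible because the labels name no cow for any library and give no replicate numbers. Depth limits the precision of single-library values, such as those of ISG15 with 1 to 78 reads.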
